A study of Mus musculus with 20 samples.

Results

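The comparison concerns 9 of the 20 mouse RNA libraries of the series, each named in the labels as a cell line: 5 embryonic stem cell lines that were obtained from primordial germ cells and lack Bax (PGC-ESC BaxKO 1 to 5), set against 4 wildtype embryonic stem cell (ESC) lines derived from host embryos (ESC Host 1 to 4). Members were taken from the labels alone, and all 21361 genes of the count table belong to the comparison, of which 16363 passed the filter on low counts and were tested. The PGC-ESC BaxKO lines have the genotype label BaxKO and the strain label C57Bl6J/129SvEvRoEp, and an EGFP reporter was read in them, as in the reference lines below. The ESC Host lines are labelled Wildtype and C57Bl6J, and the series' design text says that they were derived at the same time from the embryos that served as hosts. Origin, Bax genotype, strain label and reporter therefore changed together between the groups, and no covariate could separate them. The labels give 1 routine culture for ESC lines, on gelatin in N2B27 medium with LIF, the GSK3 inhibitor CHIR99021 and the MEK inhibitor PD0325901 (2i/LIF). Other lines of the series served for reference: 2 embryo-derived lines without Bax (ESC BaxKO) and 1 Bax heterozygous line (ESC BaxHet), all with the mixed strain label, and 3 PGC-ESC lines with a double knockout of Puma and Noxa (PGC-ESC DKO) and the C57Bl6J label. The sources used here do not give how the PGC-ESC lines were made from germ cells, or whether lines of a group share embryos. The p-values therefore measure spread between lines of this series only. That spread was estimated jointly over all 20 libraries, epiblast-like cells among them, and not from the 9 compared libraries alone.

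Primordial germ cells are the embryonic precursors of sperm and eggs. They share much of the pluripotency network with the early epiblast, but they are restricted to the germ line, erase DNA methylation at imprinted genes as they mature, and die by apoptosis when misplaced. Bax is a pore-forming member of the BCL-2 family that opens the outer mitochondrial membrane when BH3-only proteins such as Puma (gene Bbc3) and Noxa (gene Pmaip1) release it from anti-apoptotic members. Medium with 2i and LIF holds mouse ESCs in the naive state, in which the MEK-ERK pathway is blocked, beta-catenin is stabilised and STAT3 is active.

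Total counts of the 9 libraries ran from 16297378 to 32714219. Levels are given below as CPM, read counts scaled to a common library size with TMM factors, in the order of the line numbers. The 2 groups were not uniform within themselves. Rn45s, the ribosomal RNA precursor, took 2044 to 5106 CPM of the library total in the 5 PGC-ESC BaxKO libraries and 3813 and 4187 in ESC Host 1 and 2, but 27026 and 51925 in ESC Host 3 and 4, so results are also given without the last pair. Only ESC Host 1 and 2 then remain, so a call can also end there because fewer lines are compared. Y-linked genes were read in PGC-ESC BaxKO 2 and 5 (mean of 7 genes 32.001 and 31.1 CPM) and at 2.695 CPM in ESC Host 4, with no such reads in the other 6 libraries. No pair of libraries within a group agreed to within counting error.

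Of the 16363 genes tested, 2834 (17.3%) differed between the groups by edgeR's quasi-likelihood test at a Benjamini-Hochberg adjusted p under 0.05: 1300 (7.94%) were higher and 1534 (9.37%) lower in PGC-ESC BaxKO. All log2 fold changes below are PGC-ESC BaxKO over ESC Host with their standard error, and "rose" and "fell" are said of called genes. Changes were mostly moderate. The median size among called genes was 0.97 on the log2 scale, 1378 changed by at least 2-fold and 519 by at least 4-fold (214 higher, 305 lower). Over all tested genes the median was -0.04. The libraries of the groups did not overlap for 1693 of the called genes (59.7%), against 13.2% of all tested genes. For 56.1% of tested genes the 95% interval of the change lay within 2-fold in either direction. The count fell to 1024 when only the compared groups were fitted (500 higher, 524 lower). It fell to 1080 without ESC Host 3 and 4 (435 higher, 645 lower), to 1862 without ESC Host 3 alone, to 1845 without ESC Host 4 and to 1768 without PGC-ESC BaxKO 4.

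The genes that define the labels were read first. Bax (chromosome 7, 45461695 to 45466903, build mm10) stood at 1.95, 2.27, 1.76, 2.12 and 1.81 CPM in PGC-ESC BaxKO 1 to 5 and at 277, 286, 338 and 632 CPM in ESC Host 1 to 4. No library of the knockout lines came near the wildtype range, and the heterozygous line lay between at 106 CPM (log2 fold change -7.58 ± 0.28, adjusted p = 1.08e-11). EGFP, the reporter, was at 3369, 2917, 3231, 3109 and 3238 CPM in the knockout lines, absent from ESC Host 1 to 3 and at 0.649 CPM in ESC Host 4. It was also read in both ESC BaxKO lines, at 3048 and 3416 CPM, and in the BaxHet line at 1640 CPM. Bbc3, which encodes Puma, was at 27.9 to 40.9 CPM against 38.6 to 58.9 CPM and did not pass (-0.41 ± 0.20, adjusted p = 0.163). Pmaip1, which encodes Noxa, did not pass either (-0.92 ± 0.50, adjusted p = 0.2), with 41.7, 4.3, 24.4, 19.6 and 5.34 CPM in the knockout lines against 46.1, 51.3, 21.2 and 24.2 CPM. Its level in PGC-ESC BaxKO 2, 4 and 5 was below every host line, while lines 1 and 3 lay within the host range. Nnt, the mitochondrial transhydrogenase gene from which C57BL/6J mice lack several exons, was at 23.04, 59.2, 21.2, 30.8 and 67.1 CPM against 44.3, 53.7, 46.8 and 37.1 CPM (-0.17 ± 0.27, adjusted p = 0.687). Reads on the remaining exons are counted too, so this total does not check the strain label.

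The other genes of the mitochondrial apoptosis machinery are given beside the 17.3% of all tested genes that were called, 7.94% higher and 9.37% lower. Of 18 tested BCL-2 family genes 3 fell and 0 rose, with a median log2 fold change of -0.31. Besides Bax these were Bmf, a BH3-only gene, and Bcl2l1, the gene for the anti-apoptotic protein Bcl-xL. Bmf was at 5.48, 7.02, 2.62, 6.83 and 6.8 CPM in the knockout lines and 12.1, 11.6, 11.6 and 13.2 CPM in the host lines, with no overlap (log2 fold change -1.07 ± 0.23, adjusted p = 0.0047). Bcl2l1 was at 47.7 to 59.6 CPM against 64.5 to 70.9 CPM (-0.40 ± 0.09, adjusted p = 0.00963), a call that ended without ESC Host 3 and 4 (adjusted p = 0.0705). Bcl2l1 is among the list members that the naming rule does not select and that were chosen after their values were seen, as were Utf1, Tdgf1, Pou5f1, Sox2, Nanog, Esrrb, Klf4, Nodal, Lefty2, Zfp57, Tfap2a, Cdx2, Ascl2, Plet1, Krt7, Cnn2, Cnn3, Itga5, Itgb1, Myl9, Th, Axl, Lama3, Eno1, Tcstv1, Gata6, Dppa3, Olig2, Col1a2, Dcn, Fgf23, Spata5l1 and the Zscan4 genes below. Of 21 apoptosome and caspase genes 2 rose, Aifm1 and Xiap, both X-linked, and none fell. That count became 1 without any of ESC Host 3 or PGC-ESC BaxKO 1, 3 or 4. Without the 3 libraries with Y-linked reads 2 of these genes rose and 2 fell, and 2 BCL-2 family genes rose and 3 fell. Of 28 p53 target genes 1 rose and 5 fell (median -0.11). Eda2r, an X-linked gene of the TNF receptor family, was at 87.3, 50.3, 94.9, 96.3 and 51.2 CPM against 33.7, 2.87, 19.07 and 18.3 CPM and rose (2.04 ± 0.43, adjusted p = 0.00455). Sfn, which encodes the 14-3-3 sigma cell cycle inhibitor, was at 14.3, 44.9, 15, 17.2 and 51.1 CPM against 59.1, 122, 71.9 and 127 CPM and fell (-1.73 ± 0.41, adjusted p = 0.0091). Both of these calls ended without ESC Host 3 and 4, at adjusted p = 0.0507 for Eda2r and 0.0604 for Sfn, and the count of 5 p53 targets that fell became 3 when any of ESC Host 1, ESC Host 2 or PGC-ESC BaxKO 1, 3 or 4 was left out.

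Among the genes that rose with the smallest adjusted p was Zfp42 (Rex1), a zinc finger gene widely used as a marker of naive pluripotency (chromosome 8, 43295067 to 43307009). It was at 469.6, 414, 473, 421 and 455 CPM in the PGC-ESC BaxKO lines and 139.5, 149.5, 144 and 154 CPM in the ESC Host lines. The lowest knockout line was far above the highest host line and the spread within each group was narrow (log2 fold change 1.61 ± 0.08, adjusted p = 9.93e-10). The rule that named Zfp42, Zfp607b, Gm4737 and Eno1b asked for no overlap and a small adjusted p. Neither separation nor a narrow spread is therefore an added result for them. Both ESC BaxKO lines (454 and 431 CPM) and the BaxHet line (396 CPM) stood at the PGC-ESC BaxKO level, and the 3 PGC-ESC DKO lines (167, 149 and 142 CPM) at the host level. Zfp607b, a zinc finger gene on chromosome 7, was at 37.5 to 42.7 CPM against 1.1 to 2.44 CPM (4.40 ± 0.25, adjusted p = 6.21e-09). Gm4737, a predicted gene on chromosome 16, was at 106 to 113 CPM against 1.84 to 7.73 CPM (4.44 ± 0.29, adjusted p = 3.88e-08). Eno1b, a close copy of the enolase gene Eno1, was at 207, 402, 351, 235 and 259 CPM against 9.91, 2.53, 4.74 and 1.53 CPM (5.93 ± 0.45, adjusted p = 2.44e-07). Eno1 itself, at 1389 to 2191 CPM against 1727 to 3409 CPM, did not pass (-0.48 ± 0.18, adjusted p = 0.0732). Reads of such copies can be split by the counting, whose tool is not known here, so the level of Eno1b is uncertain.

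Other leading genes that rose have known roles outside pluripotency. Ccnb1ip1, a ubiquitin ligase gene needed for meiotic crossovers, was at 17.7, 27.6, 18, 13.9 and 13.5 CPM against 1.96, 1.16, 1.33 and 2.3 CPM (3.44 ± 0.26, adjusted p = 2.38e-07). Dnah8, an axonemal dynein heavy chain gene, was at 239 to 361 CPM against 56.3 to 73.2 CPM (2.17 ± 0.17, adjusted p = 3.02e-07). Bag3, a co-chaperone of HSP70, was at 36 to 46.4 CPM against 11.2 to 17.9 CPM (1.58 ± 0.13, adjusted p = 9.18e-07). No overlap between the groups was part of the rule that named these 3 genes, so their separation is no added result. They kept their calls in all 18 refits with other settings or fewer libraries. Nrp2, a receptor for semaphorins and VEGF, was at 30.9, 39.1, 38.7, 83.2 and 38.7 CPM against 6.14, 5.06, 3.93 and 3.48 CPM (3.30 ± 0.31, adjusted p = 3.06e-06), with PGC-ESC BaxKO 4 the highest.

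Wdfy1 differed from these in how the reference lines behaved. The gene encodes an endosomal protein with WD40 and FYVE domains (chromosome 1, 79702262 to 79776143). The knockout lines had 58.9, 53, 57.7, 57.6 and 43 CPM and the host lines 16.3, 13.1, 9.55 and 12.8 CPM (log2 fold change 2.06 ± 0.14, adjusted p = 6.96e-08). The ESC BaxKO lines at 26.5 and 24.9 CPM and the PGC-ESC DKO lines at 30.3, 33.7 and 31.1 CPM both lay between the groups, and the BaxHet line at 54 CPM lay within the PGC-ESC BaxKO range.

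**Figure D1:**
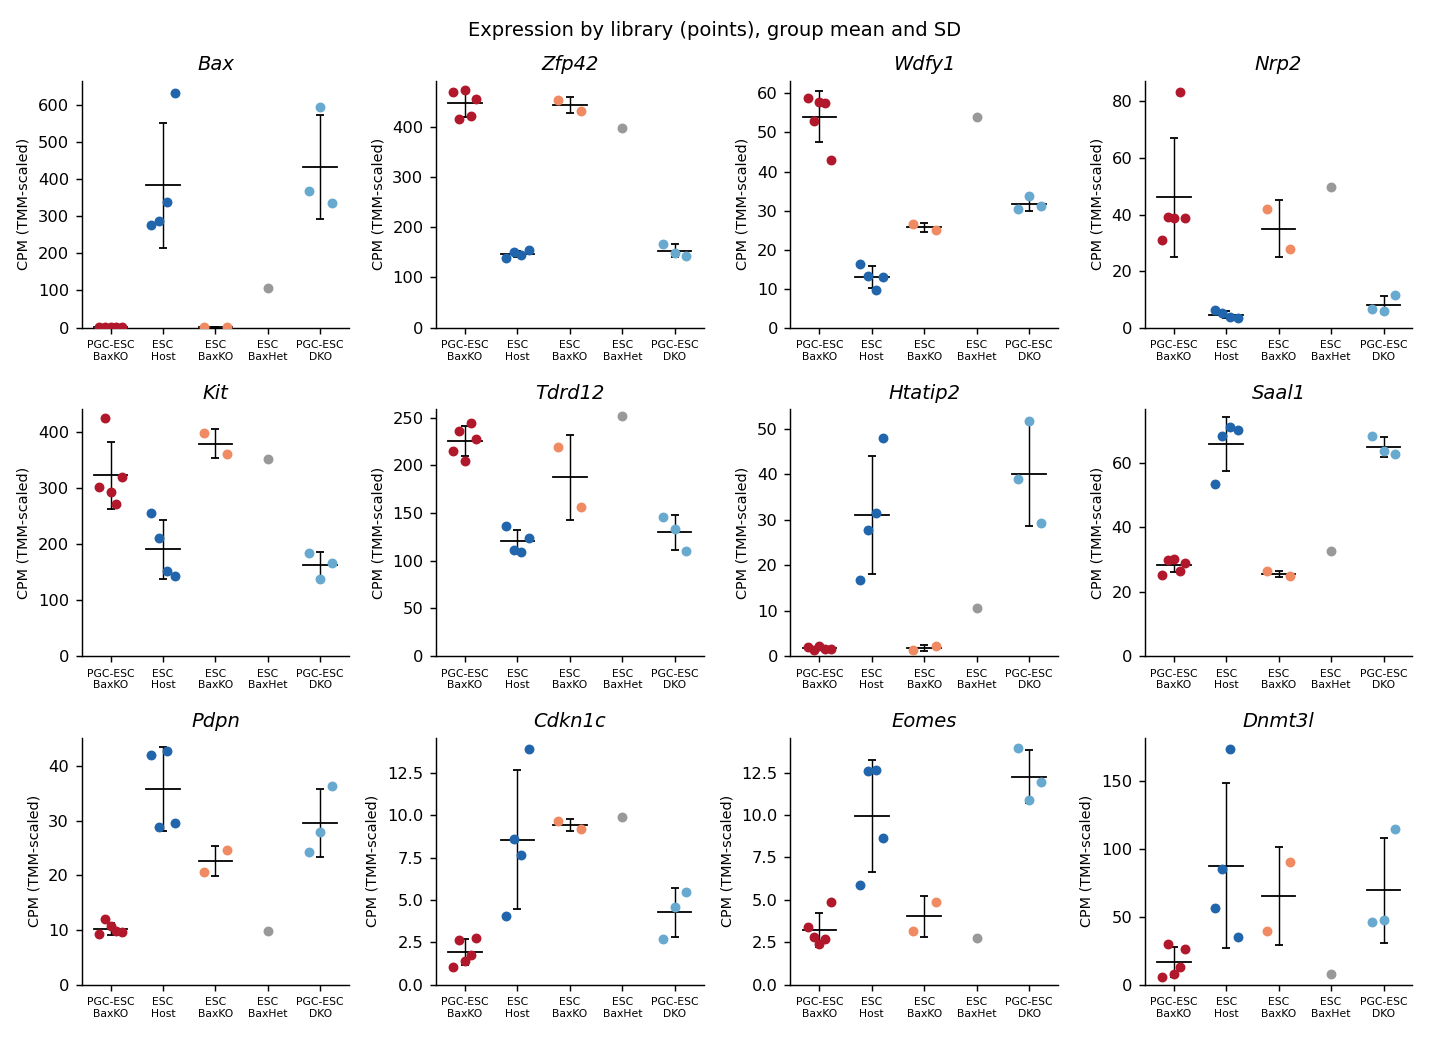
Levels of 12 genes in single libraries, in TMM-scaled CPM on linear axes that start at 0, for PGC-ESC BaxKO (n = 5), ESC Host (n = 4), ESC BaxKO (n = 2), ESC BaxHet (n = 1) and PGC-ESC DKO (n = 3). Points are libraries, bars the group mean and SD. Zfp42 is at 396 to 473 CPM in the lines with the mixed strain label and at 139.5 to 167 CPM in those labelled C57Bl6J, while Cdkn1c and Pdpn are lower in PGC-ESC BaxKO than in both ESC BaxKO lines.

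The 12 genes taken here fell with the smallest adjusted p among those without overlap and with a group mean of at least 5 CPM. Of these, 5 lie on other chromosomes or more than 5 Mb from Bax, and the neighbours of Bax follow below. Pdpn, which encodes podoplanin, a mucin-type membrane glycoprotein (chromosome 4, 143267409 to 143299564), was at 9.19, 11.9, 10.7, 9.78 and 9.64 CPM against 42.1, 28.8, 42.7 and 29.6 CPM (log2 fold change -1.80 ± 0.15, adjusted p = 8.42e-07). The ESC BaxKO lines lay between, at 20.6 and 24.6 CPM, and the BaxHet line at 9.81 CPM lay within the PGC-ESC BaxKO range. Smpdl3b, a membrane-anchored sphingomyelinase-like enzyme gene, was at 4.66, 7.6, 6.15, 4.24 and 7.4 CPM against 38.8, 27.8, 38.5 and 51.2 CPM (-2.69 ± 0.24, adjusted p = 1.82e-06). Klhl3, an adaptor of a cullin ubiquitin ligase, was at 1.59 to 2.32 CPM against 11.2 to 32.7 CPM (-3.35 ± 0.31, adjusted p = 3.13e-06). Capn11, a calpain protease gene of the testis, was at 0.0785 to 0.333 CPM against 2.57 to 14.2 CPM (-5.56 ± 0.55, adjusted p = 5.7e-06). As that choice required, each of these 4 genes was lower in every knockout line than in every host line. Gas2, an actin-associated gene 6.4 Mb from Bax, was at 0.903 to 1.12 CPM against 3.73 to 7.73 CPM (-2.43 ± 0.24, adjusted p = 5.19e-06).

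Ubd, which encodes the ubiquitin-like modifier FAT10 (chromosome 17, 37193892 to 37196101), had no count in any of the 5 PGC-ESC BaxKO libraries and 19.6, 30.1, 19.4 and 31.4 CPM in the host lines. With 3 counts over the group taken as the floor, its level was at least 899-fold lower (adjusted p = 0.000237). It was also at 0 in ESC BaxKO 2 but at 18.8 CPM in ESC BaxKO 1, 8.61 CPM in the BaxHet line and 28.6, 54.4 and 37.4 CPM in the PGC-ESC DKO lines.

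Calls were dense around Bax on chromosome 7. Of the 115 other tested genes that start from 1 Mb before to 2 Mb after the start of Bax, 47 (40.9%) fell and 6 (5.22%) rose, with a median log2 fold change of -0.50. Within the first 1 Mb after Bax 21 of 43 genes fell (48.8%), and in the 1 Mb before it 21 of 60 (35.0%). Farther before Bax 5 of 44 genes fell (11.4%) from 5 to 1 Mb and 2 of 16 (12.5%) from 10 to 5 Mb. After Bax 3 of 7 fell from 2 to 5 Mb and 2 of 4 from 5 to 10 Mb. Those genes are too few to place the end of the dense stretch after Bax. The share that fell was 14.1% (62 of 440) from 45 to 10 Mb before Bax, 4.71% (8 of 170) from 10 to 50 Mb after it and 9.82% (50 of 509) from 50 to 110 Mb after it, and over all tested genes it was 9.37%. The 47 genes became 35 to 47 when single libraries were left out, 29 without ESC Host 3 and 4, and 27 when only the 2 groups were fitted. Bax genotype and strain label change together here, so a difference from the deleted locus and one from its strain haplotype cannot be told apart.

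The neighbours that fell have unrelated functions. Ftl1, the ferritin light chain gene that lies next to Bax, was at 634, 654, 603, 598 and 729 CPM against 2654, 2972, 2896 and 6393 CPM (log2 fold change -2.53 ± 0.23, adjusted p = 2.08e-06), and the BaxHet line lay between at 1559 CPM. Htatip2, an oxidoreductase gene 4.30 Mb from Bax, was at 2.06, 1.36, 2.17, 1.57 and 1.68 CPM against 16.7, 27.8, 31.5 and 48.1 CPM (-4.14 ± 0.29, adjusted p = 9.11e-08), with 10.7 CPM in BaxHet. Saal1, a serum amyloid A-like gene, was at 25.3, 30, 30.2, 26.6 and 29 CPM against 53.6, 68.4, 71.2 and 70.2 CPM (-1.22 ± 0.10, adjusted p = 5.02e-07). Beside it Saa3, an acute-phase serum amyloid A gene, had 4 counts in all 5 knockout libraries together against 872 in those of the host lines, 249 times fewer per total count (95% counting interval 96.9 to 916; adjusted p = 2.44e-07). Ush1c, a scaffold protein gene of hair cells and gut, had 3 counts against 493, a ratio of 188 (63.9 to 913; adjusted p = 3.44e-06). Abcc8, a subunit of the ATP-sensitive potassium channel, had 5 against 222 counts, a ratio of 50.7 (21.4 to 158; adjusted p = 2.08e-06). These intervals cover counting error only.

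Rasip1, a Ras-interacting protein gene, was at 1.77 to 2.54 CPM against 7.41 to 15.6 CPM (-2.49 ± 0.22, adjusted p = 1.3e-06). Bcat2, the mitochondrial aminotransferase for branched-chain amino acids, was at 51.6 to 70 CPM against 145 to 251 CPM (-1.57 ± 0.16, adjusted p = 9.14e-06). Ruvbl2, an ATPase of chromatin remodelling complexes, was at 191 to 223 CPM against 263 to 360.3 CPM, a small but complete separation (-0.69 ± 0.10, adjusted p = 0.00022). The transcript 0610005C13Rik (-3.05 ± 0.32, adjusted p = 9.14e-06) and the zinc finger gene Zfp658 (-2.45 ± 0.33, adjusted p = 0.000156) fell as well. Ldhc, the lactate dehydrogenase of the testis, went the other way, at 2.24, 5.05, 2.12, 2.44 and 4.78 CPM against 0.37, 0.257, 0.357 and 0.766 CPM (2.96 ± 0.41, adjusted p = 0.0002).

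**Figure D2:**
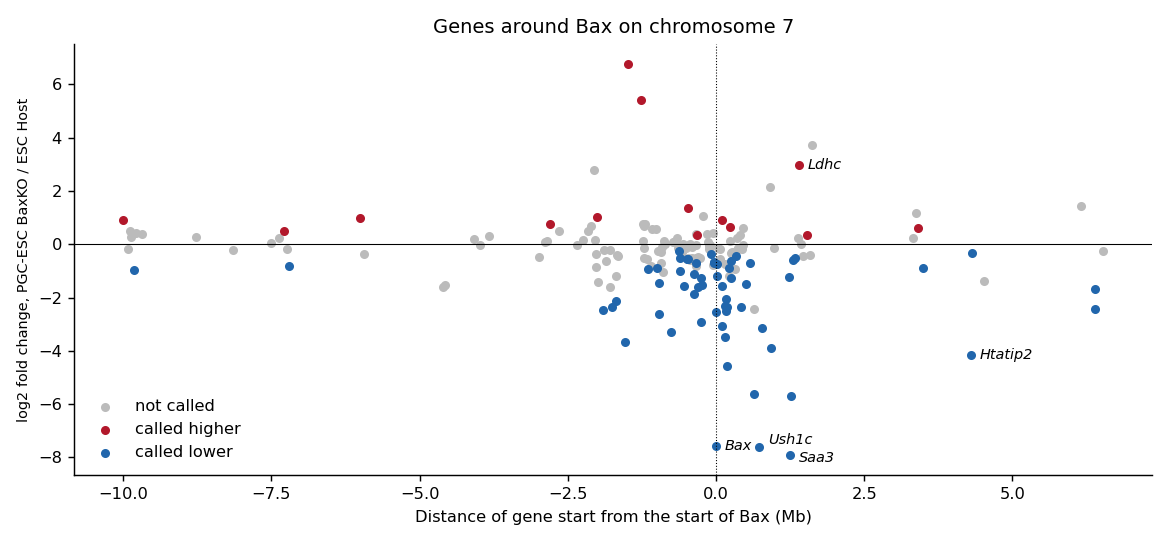
Log2 fold change (PGC-ESC BaxKO over ESC Host, y axis) of the tested genes of chromosome 7 that start within 10 Mb of Bax, by distance from the start of Bax in Mb (x axis, dotted line at Bax). Blue points are called lower, red points called higher and grey points not called; 47 of 115 genes from 1 Mb before to 2 Mb after Bax were called lower.

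Called genes took a larger share of the X chromosome than of any autosome. Of 633 tested X-linked genes 187 rose (29.5%) and 12 fell (1.90%), with a median of 0.61, and 31.4% were called in all. Shares of called genes on the autosomes ran from 13.5% on chromosome 10 to 21.4% on chromosome 17. The X-linked difference was carried by 3 of the 5 lines. Over 361 X-linked and 9839 autosomal genes above 5 CPM, the median log2 ratio to the host mean was higher for X than for autosomes by 1.01, 0.96 and 0.93 in PGC-ESC BaxKO 1, 3 and 4, the lines without Y-linked reads. In PGC-ESC BaxKO 2 and 5, the lines with Y-linked reads, it was 0.06 and 0.01, and in ESC Host 1 to 4 it was 0.27, -0.10, -0.13 and -0.04. The BaxHet line stood at 0.49. The count of 187 changed to 381 without the 3 libraries with Y-linked reads, to 39 without ESC Host 3 and 4, and to 104, 109, 116, 118 and 110 without ESC Host 3, ESC Host 4 and PGC-ESC BaxKO 1, 3 and 4 in turn.

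Named X-linked genes followed that split to different degrees. Zdhhc9, a palmitoyltransferase gene, was at 31.6, 26.2, 31.7, 39.5 and 26.6 CPM against 10.7, 8.7, 10.1 and 7.84 CPM (1.73 ± 0.15, adjusted p = 1.26e-06). It was higher in all 5 lines, as the rule that named it required, so that is no added result. Aifm1, the mitochondrial apoptosis-inducing factor gene, was at 202, 111, 212, 187 and 121 CPM against 107, 94.6, 107 and 111 CPM (0.67 ± 0.17, adjusted p = 0.0126), with line 2 at the level of ESC Host 4. Without ESC Host 3 and 4 it did not pass (adjusted p = 0.0592). Xiap, an inhibitor of caspases, was at 145, 111, 148, 165 and 93.6 CPM against 113, 94.1, 57.6 and 38.8 CPM (0.80 ± 0.25, adjusted p = 0.0367). Its call ended when any of ESC Host 3 or 4 or PGC-ESC BaxKO 1, 3 or 4 was left out, at adjusted p from 0.068 to 0.102. Esx1, a placental homeobox gene also on X, fell (-2.03 ± 0.38, adjusted p = 0.00211).

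**Figure D3:**
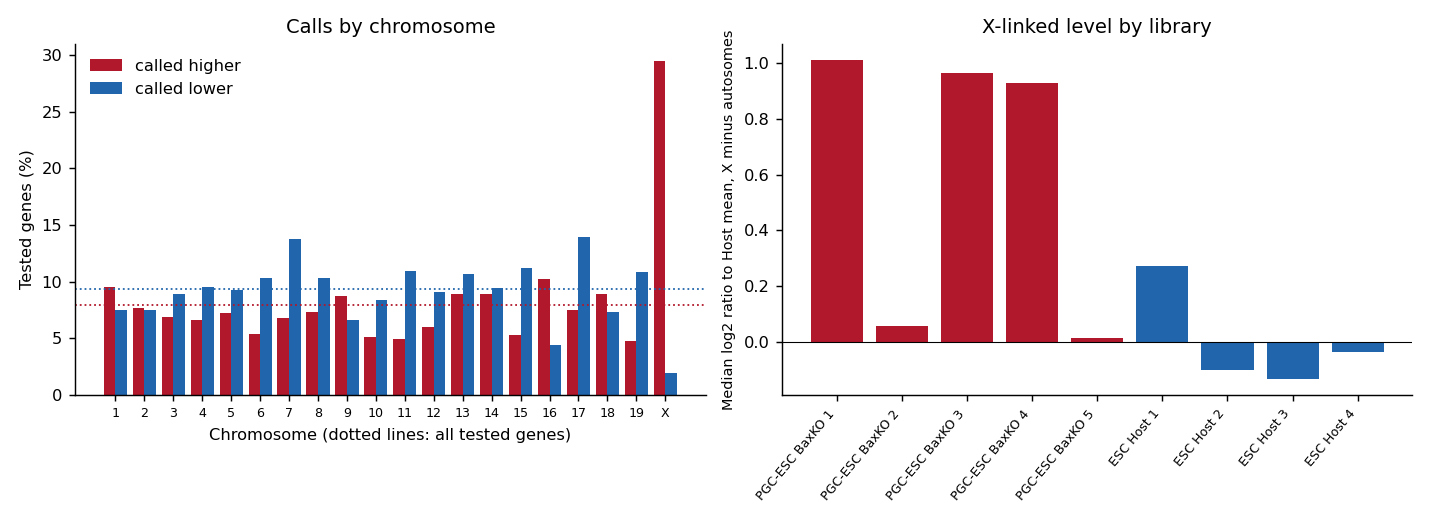
Left, percent of tested genes called higher (red) and lower (blue) on each chromosome, with dotted lines at the shares over all tested genes (7.94% and 9.37%). Right, for each library, the median log2 ratio to the mean of the ESC Host lines over X-linked genes minus that over autosomal genes; PGC-ESC BaxKO 1, 3 and 4 stand at 0.93 to 1.01 and the other 6 libraries at -0.13 to 0.27.

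The labelled cell type was checked by the pluripotency lists. Summed over 20 naive pluripotency genes the level was 5112 to 5739 CPM in PGC-ESC BaxKO and 4805 to 6013 CPM in ESC Host, where the epiblast-like cells of the same series had 537 to 809 CPM. Beside 7.94% of all tested genes that rose and 9.37% that fell, 2 of these 20 genes rose and 0 fell (median 0.06). They were Il6st, given below, and Tcl1, a co-activator of AKT kinase, at 108, 102, 93.8, 117 and 80.7 CPM against 47.7, 47.8, 48.5 and 88.6 CPM (0.79 ± 0.24, adjusted p = 0.0341). Tcl1 did not pass when any of ESC Host 1, 2 or 3 or PGC-ESC BaxKO 1, 2 or 4 was left out, and 1 member fell without PGC-ESC BaxKO 5. Pou5f1 (Oct4) was at 1141 to 1276 CPM against 1278 to 2207 CPM (-0.32 ± 0.17, adjusted p = 0.185). Sox2 was at 749 to 891 CPM against 657 to 864 CPM (0.14 ± 0.13, adjusted p = 0.465). Nanog was at 698 to 1117 CPM against 744 to 1072 CPM (-0.03 ± 0.23, adjusted p = 0.941). Esrrb was at 758 to 871 CPM against 797 to 929.7 CPM and did not pass, and its 95% interval of -0.32 to 0.20 excluded a 2-fold change. Klf4 had a wider interval of -0.72 to 0.48. Among 12 core pluripotency genes 1 rose, Zfp42, and 4 fell. Dppa4, a chromatin protein gene of early embryos, was at 54.5, 57.7, 55.9, 56.7 and 60.5 CPM against 84.3, 71.1, 103 and 92.6 CPM (-0.62 ± 0.11, adjusted p = 0.00164). Tdgf1, the Nodal co-receptor gene, was at 312 to 456 CPM against 563 to 861 CPM (-0.75 ± 0.16, adjusted p = 0.0047). Utf1 (-1.53 ± 0.37, adjusted p = 0.0108) and Dnmt3l, given below, were the other members that fell. Without ESC Host 3 and 4 the calls of Tdgf1 (adjusted p = 0.0582) and Utf1 (0.267) ended, the latter also without ESC Host 3 alone (0.0544).

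Signalling lists of the naive state gave mixed counts, given beside the 7.94% of all tested genes that rose and the 9.37% that fell. Il6st, the gp130 receptor subunit through which LIF signals, was at 159, 173, 147, 199 and 154 CPM against 109, 101, 86.8 and 56 CPM and rose (0.91 ± 0.16, adjusted p = 0.00142). It was 1 of 2 members of the 14-gene LIF-STAT3 list that rose, with 0 that fell. The other, Pim1, a kinase gene induced by STAT3, was at 356, 252, 305, 316 and 190.4 CPM against 208, 105, 196 and 184 CPM (0.71 ± 0.23, adjusted p = 0.0397), and it did not pass when any of ESC Host 2, 3 or 4 or PGC-ESC BaxKO 1, 3 or 4 was left out. Of 18 beta-catenin target genes 5 rose and 0 fell (median 0.31), but 0 rose without ESC Host 3 and 4, 2 without the 3 libraries with Y-linked reads, and 2, 2 and 3 without ESC Host 3, ESC Host 4 and PGC-ESC BaxKO 4. Ccnd1, the cyclin D1 gene, was at 158, 275, 193, 196 and 258 CPM against 114, 175, 85.7 and 96.5 CPM (0.88 ± 0.19, adjusted p = 0.00514), with line 1 below ESC Host 2. Its call ended without ESC Host 3 and 4 (adjusted p = 0.0797). Tnfrsf19, a receptor of the TNF family, was at 45.8, 67.7, 50.4, 58.1 and 62.1 CPM against 46.7, 30.9, 32 and 20.7 CPM (0.80 ± 0.21, adjusted p = 0.0171), and did not pass without ESC Host 4 (adjusted p = 0.0524). Of 21 FGF-ERK response genes 1 rose and 3 fell. Spry2, a feedback inhibitor of receptor tyrosine kinases, was at 50.7, 85.6, 63.3, 88.3 and 86.8 CPM against 149.6, 153, 147 and 100.4 CPM (-0.88 ± 0.18, adjusted p = 0.00379). Spry1, its relative, was at 5.85 to 7.78 CPM against 10.1 to 13.2 CPM (-0.77 ± 0.17, adjusted p = 0.00563). The 3 that fell became 5 without ESC Host 1, and the 1 that rose became 0 without any of ESC Host 1, 2 or 4 or PGC-ESC BaxKO 1, 3 or 4.

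Of 20 formative and primed epiblast genes 4 rose and 4 fell (median -0.13), beside 7.94% and 9.37% of all tested genes. Nodal, the TGF-beta family ligand of the epiblast, was at 59.4 to 74.5 CPM against 87.3 to 123 CPM and fell (-0.58 ± 0.12, adjusted p = 0.00497). Lefty2, a secreted inhibitor of Nodal, was at 197, 204, 199.6, 468 and 154 CPM against 103, 91.1, 51.1 and 114 CPM and rose (1.44 ± 0.36, adjusted p = 0.0133). That call ended without ESC Host 3 and 4 (adjusted p = 0.097). Grhl2, an epithelial transcription factor gene, was at 14.5, 5.78, 14.6, 12.6 and 3.1 CPM against 4.4, 1.71, 2.63 and 2 CPM (1.89 ± 0.40, adjusted p = 0.00464), with line 5 inside the host range, and did not pass without ESC Host 3 and 4 (adjusted p = 0.0693). Krt18, a simple-epithelium keratin gene, was at 0.667 to 1.89 CPM against 3.25 to 11.1 CPM (-2.15 ± 0.44, adjusted p = 0.00379). Without ESC Host 3 and 4 0 of the 20 rose and 2 fell, and 2 rose without ESC Host 3, ESC Host 4 or PGC-ESC BaxKO 1.

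Germ cell lists are given beside the 7.94% of all tested genes that rose and the 9.37% that fell. Of 20 early germ cell genes 4 rose and 0 fell, with a median of 0.30, and of 25 late germ cell and piRNA genes 2 rose and 1 fell, with a median of 0.37. Kit, the stem cell factor receptor of migrating germ cells, was at 303, 426, 293, 272 and 319.7 CPM against 256, 211, 153 and 143 CPM (0.76 ± 0.17, adjusted p = 0.00635), without overlap. The ESC BaxKO lines, which did not come from germ cells, were at 398 and 362 CPM. Itgb3, the integrin beta 3 gene that marks early germ cells, was at 23.2, 3.93, 13.2, 12.8 and 4.61 CPM against 5.11, 3.21, 4.06 and 1.95 CPM (1.67 ± 0.43, adjusted p = 0.0143). PGC-ESC BaxKO 2 and 5 lay below ESC Host 1 for this gene. Without ESC Host 3 and 4 neither Kit (adjusted p = 0.0917) nor Itgb3 (0.127) passed, and the early germ cell list had 1 gene higher and 1 lower. It had 2 higher without ESC Host 3 or without PGC-ESC BaxKO 4. Dppa3 (Stella) did not pass, at 47, 46.1, 39, 48.2 and 63 CPM against 22.3, 24, 23.7 and 84.2 CPM (0.34 ± 0.41, adjusted p = 0.584). Tdrd12, a piRNA pathway gene, was at 215, 236, 205, 244 and 227 CPM against 136, 112, 109 and 124 CPM and rose (0.91 ± 0.13, adjusted p = 0.000319), without overlap. Ddx4 (Vasa), the germ cell RNA helicase gene, was at 7.78, 3.84, 4.89, 5.22 and 11.5 CPM against 12.7, 21.9, 24.1 and 13.2 CPM and fell (-1.44 ± 0.30, adjusted p = 0.00396). In that list 4 rose without ESC Host 1 or PGC-ESC BaxKO 5, 1 without ESC Host 3, and 2 fell without PGC-ESC BaxKO 1 or 5. Without the 3 libraries with Y-linked reads 7 of these genes rose and 2 fell. The summed level of the late list was 765, 723 and 649 CPM in lines 1, 3 and 4, whose X-linked levels were raised, and 488 and 479 CPM in lines 2 and 5, against 309.5 to 451 CPM in the host lines. The part of the X-linked level in these counts was not tested.

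Of 22 meiosis genes 3 rose and 2 fell, beside 7.94% and 9.37% of all tested genes. Stag3, the meiotic cohesin subunit gene, was at 40.9, 34.1, 32.9, 25.1 and 30.4 CPM against 19.8, 16.7, 15.6 and 15.1 CPM (0.96 ± 0.20, adjusted p = 0.0048), and did not pass without ESC Host 3 and 4 (adjusted p = 0.0651). Sycp1, of the synaptonemal complex, was at 15.5, 4.99, 9.43, 8.95 and 4.48 CPM against 6.07, 2.96, 2.44 and 1.95 CPM (1.36 ± 0.36, adjusted p = 0.0164). Its call ended without ESC Host 3 (adjusted p = 0.0539) and without ESC Host 4 (0.053). The list counts ranged from 1 to 6 higher (1 without ESC Host 3, 6 without PGC-ESC BaxKO 5) and from 0 to 2 lower (0 without PGC-ESC BaxKO 3, and 1 without ESC Host 2, 3 or 4 or PGC-ESC BaxKO 1 or 4) when single libraries were left out, and without the 3 libraries with Y-linked reads 7 rose and 1 fell.

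In the DNA methylation machinery 2 of 19 genes rose and 3 fell, beside 7.94% and 9.37% of all tested genes. Dnmt3l, the cofactor of the de novo methyltransferases, had 5.89, 30, 7.71, 12.8 and 25.9 CPM in the knockout lines against 56.5, 84.9, 173 and 35.1 CPM in the host lines (log2 fold change -2.40 ± 0.51, adjusted p = 0.00485). The lines with raised X-linked levels, 1, 3 and 4, had the lowest values, and lines 2 and 5 lay just below ESC Host 4. The BaxHet line was at 7.8 CPM and the ESC BaxKO lines at 39.6 and 90.3 CPM. The part of the X-linked level in this difference was not tested. Zfp57, a zinc finger gene that protects imprints, was at 342, 454, 326, 406 and 464 CPM against 616, 829.3, 592 and 578 CPM (-0.71 ± 0.17, adjusted p = 0.0103). The 3 that fell became 5 without ESC Host 1 or without ESC Host 2, and the 2 that rose became 1 without any of ESC Host 3, ESC Host 4 and PGC-ESC BaxKO 1, 3 or 4.

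Imprinted genes are expressed from a single parental allele, and their marks are removed in the germ line. Of 26 maternally expressed imprinted genes 2 rose and 5 fell (median -0.12), beside 7.94% and 9.37% of all tested genes. The count that fell was 5 without ESC Host 3 and 4, 8 without the libraries with Y-linked reads and 4 to 7 with single libraries left out. Cdkn1c, the cyclin-dependent kinase inhibitor p57 (chromosome 7, 143458339 to 143461059), was at 1.06, 2.63, 1.41, 1.77 and 2.75 CPM against 4.03, 8.61, 7.67 and 13.9 CPM, lower in every knockout line than in every host line (log2 fold change -2.12 ± 0.33, adjusted p = 0.00044). Osbpl5, an oxysterol-binding protein gene nearby, was at 0.353 to 0.696 CPM against 0.975 to 2.57 CPM (-1.54 ± 0.32, adjusted p = 0.00441). Ascl2, a placental bHLH factor gene of the same chromosome, was at 2.42, 1.09, 0.756, 1.77 and 2.75 CPM against 5.73, 9.34, 4.22 and 6.13 CPM (-1.86 ± 0.43, adjusted p = 0.00774). Th, tyrosine hydroxylase, also on chromosome 7, was at 0.0605 to 0.215 CPM against 0.444 to 1.59 CPM (-2.28 ± 0.54, adjusted p = 0.00899). Axl, a receptor tyrosine kinase gene, rose, from 1.46 to 5.01 CPM to 6.1 to 10.4 CPM (1.61 ± 0.36, adjusted p = 0.00655), until ESC Host 3 and 4 were left out (adjusted p = 0.101). The 2 that rose became 4 without PGC-ESC BaxKO 5.

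Of 23 paternally expressed imprinted genes 2 rose and 1 fell (median 0.07), beside 7.94% and 9.37% of all tested genes. Igf2, the growth factor gene, was low throughout, at 0.707, 0.182, 0.353, 0.353 and 0.473 CPM against 3.15, 11.5, 2.11 and 1.24 CPM, and fell (-3.49 ± 0.61, adjusted p = 0.00129). Inpp5f, a phosphoinositide phosphatase gene, was at 14.5, 13.6, 13.1, 13.4 and 13 CPM against 6.81, 5.27, 3.96 and 6.96 CPM and rose (1.24 ± 0.18, adjusted p = 0.000339). The counts of the list moved from 1 to 5 higher (5 without ESC Host 1 or PGC-ESC BaxKO 5, 1 without ESC Host 3, ESC Host 4 or PGC-ESC BaxKO 4) and from 1 to 3 lower (3 without PGC-ESC BaxKO 5, and 2 without ESC Host 2, ESC Host 3 or PGC-ESC BaxKO 2 or 4). Without the libraries with Y-linked reads 4 rose and 4 fell.

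The 2-cell-like state is a transient state that a small share of ESCs enters at any time. Of 24 tested genes of that state 14 fell, 10 did not pass and 0 rose, with a median log2 fold change of -1.94, beside 9.37% of all tested genes that fell and a median of -0.04. The count was unstable: it was 5 without ESC Host 1, 8 without PGC-ESC BaxKO 3, 7 without ESC Host 3 and 4 and 2 when only the compared groups were fitted. The summed level was 3.72 to 23.8 CPM in the knockout lines and 23.01 to 112 CPM in the host lines, with ESC Host 1 the highest and PGC-ESC BaxKO 5 just above ESC Host 2. In bulk RNA, fewer cells in the state and less RNA in each such cell cannot be told apart. Zscan4c, of a multi-copy zinc finger family active in that state, was at 2.48, 0.393, 0.807, 1.69 and 2.88 CPM against 13.2, 1.59, 4.84 and 4.95 CPM (log2 fold change -1.92 ± 0.55, adjusted p = 0.0236). ESC Host 2 lay inside the range of the knockout lines. The family members Zscan4b (-2.27 ± 0.64, adjusted p = 0.0224) and Zscan4f (-1.99 ± 0.57, adjusted p = 0.0252) fell as well. Tcstv1 was at 0.118, 0.151, 0.151, 0.314 and 0.215 CPM against 2.15, 0.343, 0.682 and 0.826 CPM, without overlap (-2.35 ± 0.56, adjusted p = 0.00937). Tdpoz1 had 2 counts in the 5 knockout libraries against 52 in those of the host lines, 29.7 times fewer per total count (95% counting interval 7.82 to 252; adjusted p = 0.000347). Sp110 was at 0.252 to 0.982 CPM against 1.2 to 3.88 CPM (-2.13 ± 0.46, adjusted p = 0.00509). Zscan4c did not pass without ESC Host 1 (adjusted p = 0.0991), PGC-ESC BaxKO 3 (0.055) or PGC-ESC BaxKO 4 (0.0506). Zscan4b did not pass without ESC Host 1 (0.119) or PGC-ESC BaxKO 3 (0.0521), nor did Zscan4f (adjusted p = 0.102 and 0.0582).

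The copies Zscan4b and Zscan4f are alike in the bases before their annotated starts, which are shown here because these genes fell together. The 120 bases before the annotated starts of Zscan4b (chr7:10905051-10905170, minus strand) and Zscan4f (chr7:11397795-11397914, plus strand), from RefSeq's GRCm38.p6 annotation, are identical at 113 positions when laid side by side. They are written 5′ to 3′ with the letters TATAAAAG, picked after the sequences were read, in capitals. Bases before the start are not part of the message, and transcribed sequences were not compared. Reads of a multi-copy family can be split by the counting, whose tool is not known here, so the level of each single Zscan4 gene is uncertain.
Zscan4b: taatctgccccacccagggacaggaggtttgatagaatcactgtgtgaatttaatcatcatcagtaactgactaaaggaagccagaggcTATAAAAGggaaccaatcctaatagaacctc
Zscan4f: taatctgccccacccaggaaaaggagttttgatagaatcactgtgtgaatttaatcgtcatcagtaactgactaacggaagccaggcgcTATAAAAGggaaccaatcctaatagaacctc
In both, the capitals start 31 bases before the annotated start. Of the 24 members 13 matched the RefSeq promoter table, and 7 of those hold TATAAAAG on either strand within 250 bases before the start, and 1.51% of the 32851 promoters of the table do. The letters were chosen from these sequences and the 7 are copies of the Zscan4 and Usp17l families, so nothing is read from these shares.

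Markers of other lineages that ESC cultures could hold were read next. Of 17 trophoblast genes 2 rose and 6 fell (median -1.08), beside 7.94% and 9.37% of all tested genes, whose median was -0.04. Again 6 fell in each refit with a single library left out, and without ESC Host 3 and 4, where 0 rose. With only the 2 groups fitted 4 fell and 1 rose. Without the 3 libraries with Y-linked reads 8 fell and 3 rose. Eomes, a T-box factor gene of trophoblast and mesendoderm, was at 3.42, 2.78, 2.37, 2.67 and 4.86 CPM against 5.84, 12.6, 12.6 and 8.67 CPM (log2 fold change -1.63 ± 0.26, adjusted p = 0.00055). Plet1, a surface protein gene of trophoblast progenitors, was at 1.26 to 6.54 CPM against 9.79 to 13.6 CPM (-1.52 ± 0.37, adjusted p = 0.0109). Krt7 fell too (-2.34 ± 0.54, adjusted p = 0.00819), and so did Esx1, Ascl2 and Krt18, given above. With only the compared groups fitted neither Plet1 (adjusted p = 0.0523) nor Krt7 (0.0504) passed. Tfap2a, a transcription factor gene shared by trophoblast and neural crest, was at 6.42, 17.1, 5.65, 12 and 8.61 CPM against 3.48, 4.5, 2.89 and 1.3 CPM and rose (1.70 ± 0.39, adjusted p = 0.0076), a call that ended without ESC Host 3 and 4 (adjusted p = 0.0911). Cdx2, the gene for a transcription factor that specifies trophectoderm, was the other member that rose, with 18.4, 5.96, 26.8, 44.7 and 7.92 CPM in the knockout lines and 8.77, 2.61, 1.3 and 2 CPM in the host lines (2.49 ± 0.68, adjusted p = 0.0195). PGC-ESC BaxKO 2 and 5 lay below ESC Host 1 for this gene. Its call ended without ESC Host 3 (adjusted p = 0.0582), ESC Host 4 (0.0591) or PGC-ESC BaxKO 4 (0.0582), and without ESC Host 3 and 4 together (0.193). Leaving out any of these 3 libraries took the 2 that rose to 1. The summed level of the list was 193 to 282 CPM against 214 to 288 CPM.

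Of 19 primitive endoderm genes 1 rose and 4 fell (median -0.52), beside 7.94% and 9.37% of all tested genes. Sparc, a matricellular glycoprotein gene, was at 322, 394, 323, 432 and 431 CPM against 609, 864, 789 and 774 CPM and fell in every line (-0.996 ± 0.17, adjusted p = 0.00119). Lama1, the laminin alpha 1 chain gene, was at 90.7, 255, 126, 145 and 129.6 CPM against 60, 70.7, 25.1 and 25.2 CPM and rose (1.72 ± 0.33, adjusted p = 0.00267). Gata6, which defines primitive endoderm, was at 0.0605 to 0.884 CPM against 0.257 to 0.413 CPM. The 4 that fell became 2 without any of ESC Host 1, 2 or 3 or PGC-ESC BaxKO 2, 3 or 4. The summed level was 1071 to 1678 CPM against 1114 to 1815 CPM.

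Of 16 mesendoderm genes 2 rose and 2 fell, and of 16 neuroectoderm genes 2 rose and 0 fell. Over all tested genes 7.94% rose and 9.37% fell. Kdr, a VEGF receptor gene, was at 5.01, 2.63, 7.46, 3.61 and 2.5 CPM against 1.26, 0.386, 0.487 and 0.059 CPM and rose (2.88 ± 0.61, adjusted p = 0.00458), and did not pass without ESC Host 3 and 4 (adjusted p = 0.055). Ncam1, a neural adhesion molecule gene, was at 53, 31.3, 56.9, 53.5 and 32.9 CPM against 28.2, 23.3, 22.3 and 26.1 CPM (0.87 ± 0.20, adjusted p = 0.00869), and did not pass without ESC Host 3 and 4 (adjusted p = 0.0812). Nes, the nestin gene of neural progenitors, was at 25.8, 35.6, 26.5, 31.7 and 19.7 CPM against 14.2, 11.8, 14.7 and 23.5 CPM (0.80 ± 0.19, adjusted p = 0.00783). With only the compared groups fitted Nes did not pass (adjusted p = 0.075). Olig2, a neural bHLH factor gene, was at 0.0589, 30.8, 40.4, 0.0785 and 0.301 CPM against 72.9, 144, 57.9 and 67.9 CPM, and did not pass (-2.57 ± 0.98, adjusted p = 0.0766), although the groups did not overlap. Lines 1, 4 and 5 were near 0, as were both ESC BaxKO lines (0.0711 and 0.372 CPM) and the BaxHet line (0.0897 CPM), while lines 2 and 3 were nearer to the host lines. Of 15 tested fibroblast and feeder genes 1 rose and 2 fell. Their sum of 1322 to 2635 CPM against 1025 to 1978 CPM included the fibronectin gene Fn1 and the vimentin gene Vim, which ESCs also express. Col5a1, a fibrillar collagen gene, was at 31.9, 12.9, 31.8, 24.4 and 9.77 CPM against 16.1, 9.6, 6.53 and 5.31 CPM and rose (1.23 ± 0.36, adjusted p = 0.026), until any of ESC Host 3 or 4 or PGC-ESC BaxKO 1, 3 or 4 was left out. Twist1, a mesenchymal transcription factor gene, was at 0.787 to 2.18 CPM against 1.85 to 3.63 CPM and fell (-1.09 ± 0.31, adjusted p = 0.0247), until any of ESC Host 1 or 4 or PGC-ESC BaxKO 2 was left out. Col1a2 was at 0.272 to 0.825 CPM against 0 to 0.257 CPM, and Dcn at 0 to 0.0504 CPM against 0 to 0.037 CPM. With single libraries left out, the mesendoderm genes that fell became 1 except without ESC Host 3 or PGC-ESC BaxKO 2, and the fibroblast counts ran from 0 to 2 in each direction. Without the 3 libraries with Y-linked reads 3 fibroblast and feeder genes rose and 0 fell.

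Of 33 actin and adhesion genes 10 fell and 2 rose, with a median of -0.28, beside 9.37% of all tested genes that fell and a median of -0.04. The 10 became 8 to 10 with single libraries left out and 9 without ESC Host 3 and 4. Besides Pdpn these included Tpm2, a tropomyosin gene, at 1.3, 2.12, 0.756, 1.49 and 3.7 CPM against 7.99, 10.6, 8.61 and 10.8 CPM (-2.32 ± 0.32, adjusted p = 0.000182). Itga5, the integrin alpha chain of the fibronectin receptor, was at 30.4, 30.9, 22.6, 21.8 and 26.6 CPM against 101, 55.7, 93.5 and 50.3 CPM (-1.51 ± 0.22, adjusted p = 0.000265). Cnn2, a calponin gene, was at 5.36, 14.4, 6.61, 5.03 and 10.5 CPM against 23.9, 17.3, 19.11 and 28.7 CPM (-1.40 ± 0.25, adjusted p = 0.00156), and its relative Cnn3 at 409 to 536 CPM against 528 to 888 CPM (-0.72 ± 0.13, adjusted p = 0.0015). Myl9, a myosin light chain gene of smooth muscle, had 1 count in the 5 knockout libraries against 75 in those of the host lines, a ratio of 85.7 (14.9 to 3429; adjusted p = 0.000558). Itgb1, the partner chain of Itga5, rose instead, at 226, 178, 209, 257 and 149.8 CPM against 152, 108, 131 and 69.6 CPM (0.83 ± 0.19, adjusted p = 0.00874), and did not pass without ESC Host 3 and 4 (adjusted p = 0.055). The 2 that rose became 5 without ESC Host 1 and 1 without any of ESC Host 2, 3 or 4 or PGC-ESC BaxKO 1, 3 or 4.

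Of 28 collagen and laminin genes 2 rose and 3 fell, beside 7.94% and 9.37% of all tested genes. Lama1 and Sparc are given above, and the laminin chain genes Lama3 (-0.95 ± 0.24, adjusted p = 0.014) and Lama4 (-2.22 ± 0.43, adjusted p = 0.00243) fell. With only the compared groups fitted Lama3 did not pass (adjusted p = 0.0538). Without the 3 libraries with Y-linked reads 3 collagen and laminin genes rose and 6 fell. Of 29 BMP and TGF-beta pathway genes 4 rose and 2 fell (median 0.23). Id3, a target of BMP signalling, was at 7.72, 7.23, 7.76, 9.19 and 14.8 CPM against 26.2, 37.8, 26.8 and 19.3 CPM and fell (-1.56 ± 0.27, adjusted p = 0.00126). Smad9, a BMP-responsive SMAD gene, was at 2.18, 4.39, 3.13, 2.36 and 2.62 CPM against 0.851, 0.429, 0.228 and 0.413 CPM and rose (2.60 ± 0.39, adjusted p = 0.000392). The 4 that rose became 2 without ESC Host 3, without ESC Host 4 and without both, and the 2 that fell became 1 without ESC Host 3. Without the 3 libraries with Y-linked reads the balance turned, with 2 that rose and 5 that fell.

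Several lists moved when the pair of host libraries that held many Rn45s reads was left out. Over all tested genes 7.94% rose and 9.37% fell. Of 28 tested replication-dependent histone genes, whose messages carry no poly(A) tail, 15 fell and 2 rose (median -1.47). Their summed level was 19.6 to 27.2 CPM in the knockout lines and 28.7 and 24.5 CPM in ESC Host 1 and 2, but 52.5 and 74.7 CPM in ESC Host 3 and 4, and without that pair 1 of them fell. Leaving out ESC Host 4 alone gave 7, as did leaving out the 3 libraries with Y-linked reads, of which it is 1. H3c3, a histone H3 gene, was at 1.83, 1.91, 1.16, 1.65 and 2.11 CPM against 4.25, 3.34, 5.65 and 9.14 CPM and fell in all settings (-1.68 ± 0.29, adjusted p = 0.00123). H2ac7 was 1 of 2 that went the other way, at 2.24, 2.33, 2.32, 2.4 and 2.97 CPM against 0.185, 0.129, 0.163 and 0.236 CPM, and rose in every setting (3.77 ± 0.47, adjusted p = 8.16e-05). Of 33 glutathione and antioxidant genes 8 fell and 2 rose (median -0.38). Their sum was 4680 to 5380 CPM in the knockout lines and 5513, 5781, 7372 and 9535 CPM in ESC Host 1 to 4. Without ESC Host 3 and 4 1 of them fell, and 5, 4 and 5 did without ESC Host 3, ESC Host 4 and PGC-ESC BaxKO 4. Gsto1, a glutathione transferase gene, was at 149, 66.8, 166, 73.6 and 83.6 CPM against 322, 386, 249.6 and 344 CPM and fell in all settings (-1.59 ± 0.24, adjusted p = 0.000376). Gpx4, the peroxidase that protects membrane lipids, was at 192, 182, 170.0, 172 and 211 CPM against 376, 194, 508 and 835 CPM (-1.37 ± 0.28, adjusted p = 0.00365), and did not pass without that pair (adjusted p = 0.149). The part of Rn45s content in these differences was not tested.

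Of 23 cholesterol synthesis genes 6 fell and 1 rose, beside 9.37% and 7.94% of all tested genes. Hmgcs1, the HMG-CoA synthase gene, was at 204, 327, 212, 246 and 317 CPM against 422, 388, 503 and 336 CPM (-0.66 ± 0.16, adjusted p = 0.00904). Stard4, a sterol transfer protein gene, was at 55.1 to 82.8 CPM against 27.3 to 42.4 CPM and rose (0.88 ± 0.16, adjusted p = 0.00171). Without ESC Host 3 and 4 1 member fell, and without ESC Host 3, ESC Host 4, PGC-ESC BaxKO 1 and PGC-ESC BaxKO 4 in turn 2, 2, 3 and 2 fell. Without the 3 libraries with Y-linked reads 2 rose and 3 fell, and without PGC-ESC BaxKO 2, 2 rose.

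Of 23 glycolysis genes 1 rose and 2 fell, with a median of -0.01, beside 7.94% and 9.37% of all tested genes. Pfkm, a phosphofructokinase gene, was at 44.5, 52.9, 43.6, 42.4 and 68.3 CPM against 72.8, 104, 77.1 and 65 CPM (-0.66 ± 0.16, adjusted p = 0.00898). Eno3, the muscle enolase gene, was at 2.12, 8.17, 3.68, 4.36 and 7.14 CPM against 9.29, 8.48, 12.9 and 12.8 CPM (-1.08 ± 0.28, adjusted p = 0.0149), and did not pass without ESC Host 3 and 4 (adjusted p = 0.198). The 2 that fell became 4 without ESC Host 1 and 5 without ESC Host 2, and the 1 that rose became 0 without any of ESC Host 1, 2 or 4 or PGC-ESC BaxKO 1 or 4. Leaving out PGC-ESC BaxKO 2 gave 2.

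The lists of interferon and antigen presentation genes (4 of 33 rose, 2 fell), heat shock and unfolded protein response genes (3 of 26 rose, 1 fell) and polycomb genes (3 of 25 rose, 2 fell) are given beside the same shares of all tested genes, 7.94% higher and 9.37% lower. Without the 3 libraries with Y-linked reads 7 heat shock genes rose and 2 fell, 4 interferon genes fell and 4 polycomb genes fell. Xaf1, an interferon-inducible gene, was at 37.4, 31.3, 43, 38.2 and 27.9 CPM against 11.5, 12.4, 3.44 and 10 CPM (1.93 ± 0.30, adjusted p = 0.000533). H2-M3, a class Ib histocompatibility gene, was below 1 CPM in all 9 libraries and fell (-1.50 ± 0.42, adjusted p = 0.0216), until ESC Host 3 or PGC-ESC BaxKO 4 was left out. Hspa1a, the inducible HSP70 gene, was at 0.589 to 1.68 CPM against 2.59 to 3.39 CPM and fell (-1.44 ± 0.29, adjusted p = 0.00379). Slc7a11, the cystine transporter gene of the same list, rose (1.47 ± 0.32, adjusted p = 0.00516). Bmi1, a subunit gene of polycomb repressive complex 1, was at 33.9 to 44.9 CPM against 17.6 to 28.6 CPM and rose (0.80 ± 0.16, adjusted p = 0.00264). Ring1, another subunit gene of that complex, was at 9.84, 12, 10.2, 10.8 and 13.8 CPM against 12.8, 17.4, 18.4 and 20.1 CPM and fell (-0.60 ± 0.15, adjusted p = 0.0137), a call that ended without ESC Host 3 and 4 (adjusted p = 0.217). The interferon genes that rose became 1 without ESC Host 3 or PGC-ESC BaxKO 3 or 4 and 2 without ESC Host 1 or 2, and those that fell became 1 without any of the 9 libraries. The polycomb genes that rose became 1 without ESC Host 2 or 3 or PGC-ESC BaxKO 1, 3 or 4, and those that fell 1 without ESC Host 3 or PGC-ESC BaxKO 3 or 4.

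**Figure D4:**
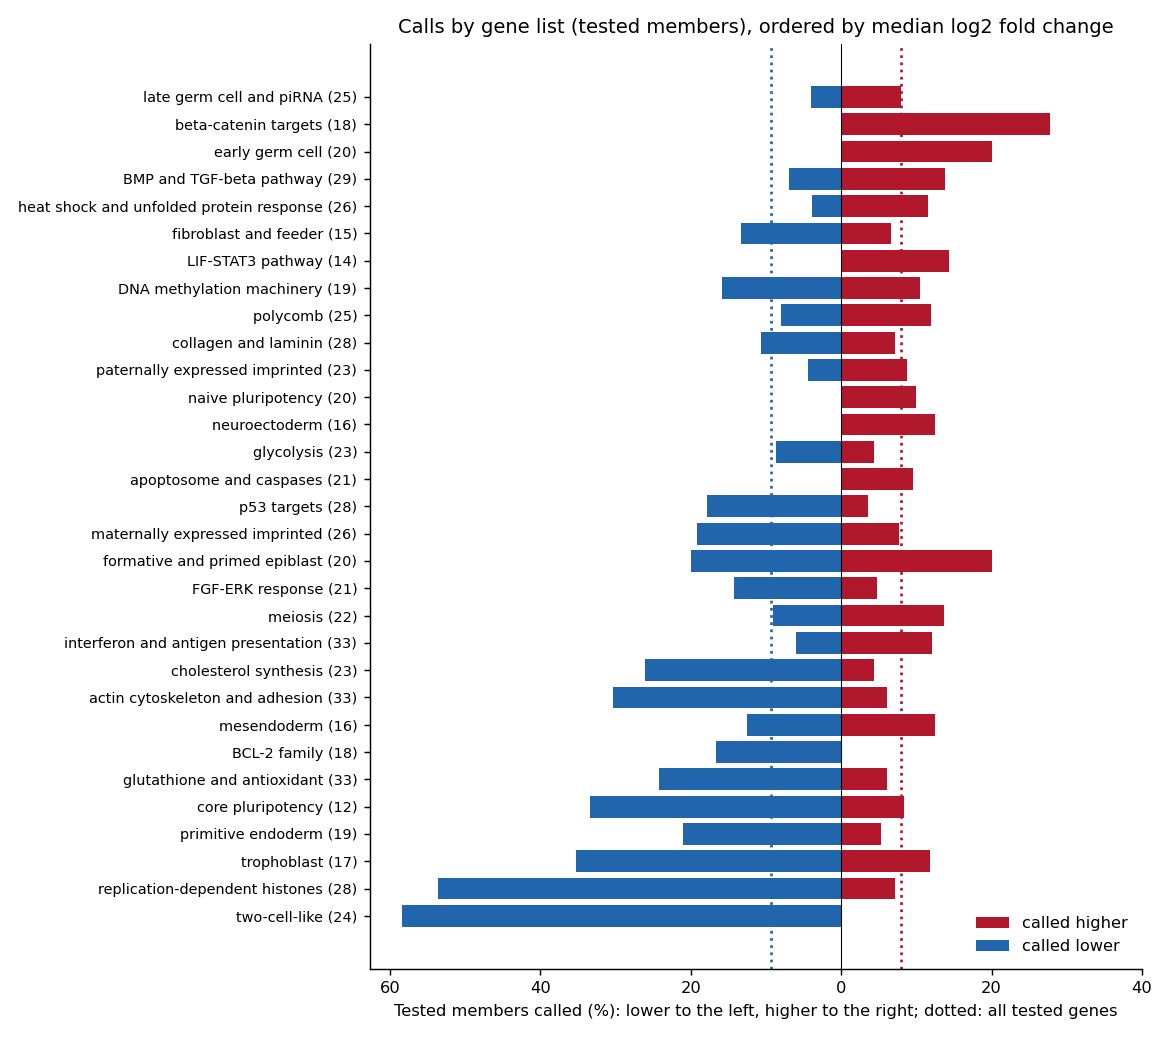
Percent of tested members called lower (blue, to the left) and higher (red, to the right) in PGC-ESC BaxKO against ESC Host for 31 gene lists, with the number of tested members in brackets and the lists ordered by median log2 fold change. Dotted lines mark the shares over all tested genes (9.37% lower, 7.94% higher); the 2-cell-like, histone and trophoblast lists reach farthest to the left.

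A comparison that shares no library with this one was available within the series: the 2 ESC BaxKO lines against the 3 PGC-ESC DKO lines. There Bax genotype and strain label differ in the same direction, origin differs in the opposite direction, and the double knockout is added on the C57Bl6J side. It called 1034 genes (6.32%), 636 higher (3.89%) and 398 lower (2.43%) in ESC BaxKO, but 234 and 260 without ESC BaxKO 1 and 2 and 386 and 550 without PGC-ESC DKO 2 and 3. Rn45s was at 3263 and 18387 CPM of the library total in the ESC BaxKO libraries and at 24395 to 45205 CPM in the DKO libraries, and its part in this comparison was not tested. Of the 1034 genes, 378 were also among the genes that rose in PGC-ESC BaxKO, which is 59.4% of the genes higher there and 29.1% of the 1300 here. A further 262 fell in both, 65.8% of the 398 and 17.1% of the 1534. The sign of the change was shared by 93.6% of the genes that rose here and 90.2% of those that fell, against 72.4% of all tested genes. The 3 genes called in opposite directions were EGFP, whose level was 9051 to 11193 CPM in the DKO lines, Fgf23 and Spata5l1.

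Of the 87 named genes that were called, 44 were called in the same direction in that comparison. Zfp42 differed by 1.53 ± 0.11, adjusted p = 1.47e-07, near the 1.61 seen here, and Zfp607b by 4.72 ± 0.32, adjusted p = 1.47e-07. Eno1b (6.81 ± 0.57, adjusted p = 1.87e-06) and Bag3 (1.79 ± 0.17, adjusted p = 1.31e-05) did likewise. Near Bax, Htatip2 (-4.55 ± 0.44, adjusted p = 1.31e-05), Saal1 (-1.34 ± 0.14, adjusted p = 2.21e-05) and Ftl1 (-2.56 ± 0.34, adjusted p = 0.000285) were again lower. Inpp5f (1.54 ± 0.24, adjusted p = 0.00163), Kit (1.22 ± 0.22, adjusted p = 0.00467), Il6st (1.26 ± 0.21, adjusted p = 0.00265) and Eomes (-1.61 ± 0.36, adjusted p = 0.0153) passed as well.

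Another 9 named genes had the opposite sign there: Bmf, Cdkn1c, EGFP, Hmgcs1, Itgb3, Lama4, Ncam1, Osbpl5 and Wdfy1. Of these 9 only EGFP was called there. Cdkn1c, lower in PGC-ESC BaxKO than in ESC Host, was 1.17 ± 0.42, adjusted p = 0.102 in ESC BaxKO over PGC-ESC DKO, and Wdfy1 was -0.30 ± 0.18, adjusted p = 0.299. Pdpn (-0.38 ± 0.20, adjusted p = 0.239) and Dnmt3l (-0.09 ± 0.68, adjusted p = 0.951) did not pass.

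**Figure D5:**
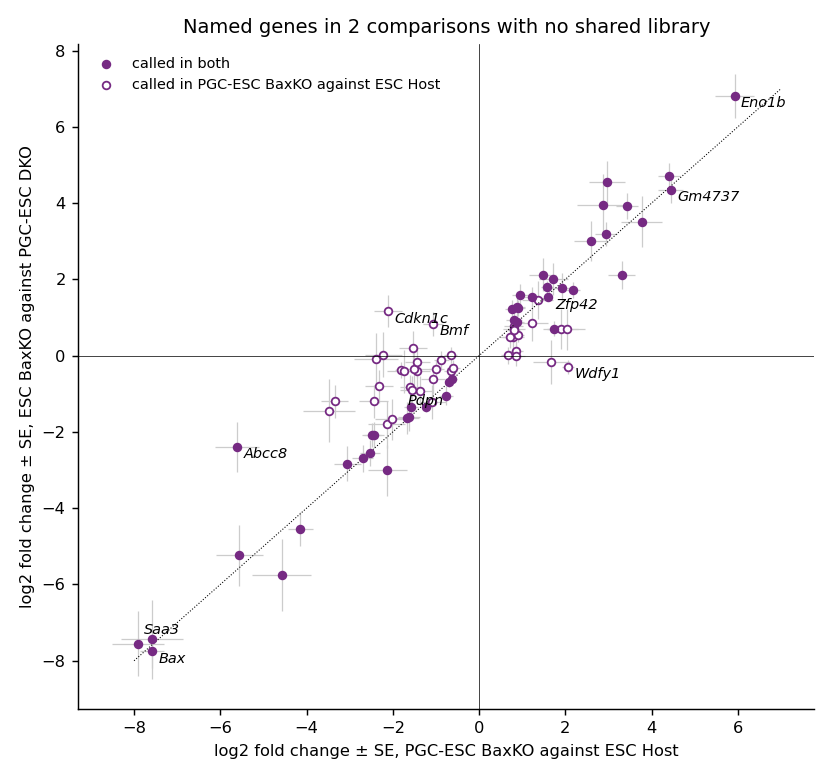
Log2 fold change with standard error of 85 named genes called in PGC-ESC BaxKO against ESC Host (x axis), and of the same genes in ESC BaxKO against PGC-ESC DKO (y axis); EGFP and Ubd are left out for scale. Filled points are called in both comparisons (44 genes), open points only on the x axis, and the dotted line marks equal values. Zfp42, Gm4737 and Eno1b lie near the line, and Cdkn1c, Bmf and Wdfy1 lie across the axis.

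PGC-ESC BaxKO and ESC BaxKO share Bax genotype and strain label and differ in origin as far as the labels go. By the same test 6 genes differed between them (0.0367%), 1 higher (0.00611%) and 5 lower (0.0306%) in PGC-ESC BaxKO. This comparison shares the PGC-ESC BaxKO libraries with the main one, so the values are set side by side only. Wdfy1 was 1.07 ± 0.17, adjusted p = 0.0487 over ESC BaxKO and 2.06 ± 0.14 over ESC Host, and Pdpn -1.14 ± 0.18, adjusted p = 0.0487 and -1.80 ± 0.15. Cdkn1c was -2.26 ± 0.37, adjusted p = 0.0487 over ESC BaxKO and -2.12 ± 0.33 over ESC Host. Ubd was at 0 in all 5 PGC-ESC BaxKO libraries and in 1 of the 2 ESC BaxKO libraries. For comparison, ESC BaxKO over ESC Host was 0.99 ± 0.17 for Wdfy1, -0.66 ± 0.20 for Pdpn and 0.15 ± 0.39 for Cdkn1c, and PGC-ESC DKO over ESC Host was 1.29 ± 0.15, -0.28 ± 0.17 and -1.02 ± 0.37. The BaxHet line, embryo-derived as well, stood at the PGC-ESC BaxKO level for Wdfy1 and Pdpn but not for Cdkn1c (9.9 CPM). The count of 6 was 0 when PGC-ESC BaxKO 1, 3 or 4 was left out, 12 without line 2 and 1 without ESC BaxKO 1. Its direction depended on the fit: DESeq2 called 50 genes higher and 24 lower, and with the replicate block 3 were higher and 2 lower. Both ESC BaxKO libraries held Y-linked reads (mean 36.5 and 28.5 CPM), as did PGC-ESC BaxKO 2 and 5, while PGC-ESC BaxKO 1, 3 and 4 held none and had raised X-linked levels. The part of that difference in this comparison was not tested.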

How the data were processed

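Poly(A)-selected RNA was sequenced, and reads were aligned with STAR 2.7.7a to mouse build mm10, per the submitters' processing notes. The deposited values are raw gene counts. The sources used here name no counting tool or annotation. The deposited counts were tested with edgeR 4.0.16 (R 4.3.3): TMM scaling, the default low-count filter, 1 coefficient for each of 7 groups over 20 libraries (13 residual degrees of freedom), two-sided quasi-likelihood F test, Benjamini-Hochberg adjustment over 16363 genes. DESeq2 1.42.0 was an alternative. Gene positions and promoters came from RefSeq (GRCm38.p6), which placed 16342 tested genes. The 32 gene lists and the members were chosen with earlier results of these data known, and no set test was run. Genes were named by rule: 5 targeted genes, the 12 higher and 12 lower genes with the smallest adjusted p (a group mean of at least 5 CPM, no overlap), up to 2 called members of each list, up to 12 called genes within 5 Mb of Bax, and genes also called against ESC BaxKO; other names were chosen after values were seen. Some genes that the rule selects are not reported here. On simulated counts of 15819 genes the test recovered 58% of 2-fold and 96% of 4-fold changes, with 4.94% false calls. The simulation changed 200 genes and otherwise gave all libraries the same mean level and a single dispersion per gene. Unequal spread between groups and a large number of changed genes were not simulated, so these rates need not hold for the data. Alternatives changed scaling, filter, tool, threshold, libraries in the fit, a replicate block, Rn45s, and left out each library, ESC Host 3 and 4, or the libraries with Y-linked reads.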

Additional observations from a re-analysis of the deposited data

Results flagged for a closer look

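Single libraries stood apart from the rest of their group, by a gap test at the 95% level, in 18 of the gene and group pairs named. Chance flags about 1 in 20 groups, and 91 genes were named by rule alone, each read in both compared groups. Many of the 18 flags can therefore be chance, and nothing is read from their number. Among the ESC Host lines, ESC Host 4 was high for Ftl1 (6393 CPM, next 2972), Tcl1 (88.6 CPM), Pou5f1 (2207 CPM, next 1370), Dppa3 (84.2 CPM, next 24.0) and Ddx3y, a Y-linked gene (6.84 CPM, others 0), and low for Spry2 (100.4 CPM, next 146.7). ESC Host 2 was high for Krt18 (11.1 CPM), Abcc8 (3.94 CPM), Zfp57 (829.3 CPM) and Axl (5.01 CPM). ESC Host 1 was low for Saal1 (53.6 CPM) and high for Zscan4b (6.18 CPM, next 1.65). Among the PGC-ESC BaxKO lines, line 4 was high for Nrp2 (83.2 CPM, next 39.1) and Lefty2 (468 CPM, next 204), line 5 for Id3 (14.8 CPM), H2ac7 (2.97 CPM) and Ruvbl2 (223 CPM), and line 2 was low for Pou5f1 (1141 CPM, next 1254).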

How the results depend on the processing

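For PGC-ESC BaxKO against ESC Host (2834 genes) the count was 992 at an adjusted p under 0.01, 1378 with a 2-fold minimum, 1024 with only the compared groups fitted and 1080 without ESC Host 3 and 4, and it ran from 1768 to 3455 with single libraries left out. It lay within 1.5 times under RLE scaling, no filter, DESeq2, 15 libraries, Rn45s removal and removal of the libraries with Y-linked reads. For ESC BaxKO against PGC-ESC DKO (1034 genes) it was 247 at 0.01, 673 with a 2-fold minimum, 1923 by DESeq2 and 505 with 15 libraries, and 234 to 723 with single libraries left out. For PGC-ESC BaxKO against ESC BaxKO (6 genes) it was 0 at 0.01, 0 under RLE scaling, 10 without the filter, 74 by DESeq2, 0 with only the compared groups, 0 with 15 libraries, and 0 to 12 with single libraries left out. Its split of 1 higher and 5 lower turned to 50 higher and 24 lower by DESeq2, and to 3 and 2 with the replicate block. Of the 87 named genes called, 64 kept their call in all 18 refits and 23 lost it in at least 1. The replicate numbers did not pair the lines (correlations of same-numbered deviations 0.34, 0.28, -0.06 and -0.08), and with a replicate block the counts were 3032, 557 and 5. RLE scaling moved the split of the 2834 from 1300 and 1534 to 1403 higher and 1445 lower. The groups hold 5 and 4 lines, which limits the changes that can be seen at low counts.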
